A study of Mus musculus with 9 samples.

Results

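The genes described here are the receptors for glutamate, GABA, glycine, acetylcholine, serotonin, dopamine and noradrenaline, as expressed in mouse neural stem cells with and without the chromatin protein SMCHD1. Members were the rows of the deposited gene table whose symbol matches the naming pattern of a receptor subunit or receptor of these families, which gave 98 rows of 25965. Symbols follow the table, so the D1 dopamine receptor, listed there as Drd1a, fell outside the pattern and is mentioned separately. The study measured RNA in 9 libraries of C57BL/6 neural stem cell lines derived from E14.5 embryos that were homozygous for a floxed Smchd1 allele. Each established line was divided: one portion received a retroviral vector for Cre and puromycin resistance (MSCV-Cre-puro), was selected from 24 hours on and was harvested at 7 days. The other portion was kept without virus and, as far as the labels state, without puromycin. The deleted group (Smchd1 del/del) has 3 female lines, numbered 1, 2 and 3, and 1 male line, numbered 5. The control group (Smchd1 fl/fl) has the same 4 lines and a male line 7. Loss of Smchd1, the virus and the selection therefore went together and cannot be told apart. The series' design line calls the controls del/fl and all lines female; the labels of the single samples give fl/fl and both sexes and were followed. Whether any line is a clone is not stated.

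Transmitter receptors fall into ion channels, which open when the transmitter binds (AMPA, kainate and NMDA receptors for glutamate, GABA-A and glycine receptors, nicotinic acetylcholine receptors and the serotonin receptor 5-HT3), and G protein-coupled receptors, which signal through second messengers. Neural stem cells divide and make neurons and glia but form no synapses, and several of these receptors are known to be present in them, where they set membrane potential, calcium signals and proliferation. SMCHD1, a non-canonical member of the SMC family, is known as a silencer of genes on the inactive X chromosome, in imprinted domains and in gene clusters such as the protocadherins.

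The libraries held between 12853089 and 44913917 reads in genes, the female fl/fl library of line 2 being the shallowest. Smchd1, counted over its whole gene, lay between 5.04 and 5.36 log2 RPM (the reads-per-million scale of the authors) in the 4 del/del libraries and between 6.16 and 6.81 in the 5 fl/fl libraries, a difference of -1.19 (SE 0.148, limma adjusted p = 0.00751). Of the neural stem cell markers, 10 of 10 passed the filter on low values. Their summed level was 495 to 664 RPM in del/del and 462 to 942 RPM in fl/fl libraries. None was called (0 of 10 at an unadjusted p under 0.05 with limma, and 0 with voom). Hes5 had the largest difference, 0.30 (SE 0.346). Markers of excitatory neurons stood near 0: 0 of 6 passed the filter, their summed level was 0.383 to 0.784 RPM in del/del and 0.372 to 0.746 RPM in fl/fl libraries, and the vesicular glutamate transporters Slc17a6 and Slc17a7 had at most 2 and at most 24 reads in any library. Of 8 microglial and leukocyte markers 2 passed the filter, Cx3cr1 and Csf1r, while C1qa had 0 reads in every library. Cx3cr1 averaged 102 RPM in del/del and 101 RPM in fl/fl libraries. Of 9 oligodendrocyte lineage markers found, 8 passed the filter and 0 were called (0 at an unadjusted p under 0.05 with limma, and 0 with voom). These markers summed to 245 to 305 RPM in del/del and 218 to 411 RPM in fl/fl libraries. Astrocyte markers moved with the groups in part: 3 of 8 rose (Gfap, Aqp4 and Slc1a2), with a summed level of 290 to 384 RPM in del/del and 228 to 431 RPM in fl/fl libraries. Neuron markers rose in 2 of 10 (the neurofilament genes Nefm and Nefl), with sums of 168 to 180 RPM and 127 to 180 RPM. At an unadjusted p under 0.05 with limma, 4 of the 8 astrocyte and 2 of the 10 neuron markers were higher and 0 lower. With voom 4 and 2 rose. Over all genes kept, 1.45% rose, 8.06% were higher at an unadjusted p under 0.05, and 1.55% rose with voom. Inhibitory neuron markers summed to 21.3 to 28.3 RPM in del/del and 9.50 to 23.0 RPM in fl/fl libraries, nearly all of it Gad1, the 1 of 7 above the filter; Gad2 had 71 to 98 and 7 to 42 reads, and Dlx5 and Dlx6 had at most 3 reads in any library. Endothelial markers summed to 3.81 to 7.95 RPM and 2.61 to 4.47 RPM, and of the 2 of 6 above the filter Flt1 differed by 1.84 (limma adjusted p = 0.106; 0.00995 once lines formed a block) and Kdr by 0.61 (0.497). Fibroblast markers summed to 54.9 to 89.6 RPM and 38.2 to 71.7 RPM, and of the 3 of 8 above the filter Col6a1 differed by 1.39 (adjusted p = 0.105) without overlap of the groups. In such bulk RNA, a different number of cells of a type and a different amount of RNA per cell cannot be told apart, and the part of other cell types in the receptor results below was not tested.

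Of the 98 receptor rows, 47 (48.0%) passed the filter, a level of at least 0 log2 RPM, that is 1 RPM, in at least 3 libraries; of all rows 54.1% did. The 51 others split into 3 without a read in any library (Chrna6, Gabra6 and Htr1a), 25 with at most 10 reads in every library, and 23 with more, up to 129 reads in 1 library. How much of a receptor family was present differed between families. Every AMPA (4 of 4), kainate (5 of 5), NMDA (7 of 7) and GABA-B (2 of 2) gene passed the filter, as did 4 of 5 muscarinic genes. Of the adrenergic genes 5 of 9 passed, of the GABA-A genes 8 of 19, of the glycine receptor genes 2 of 5 and of the metabotropic glutamate receptor genes 3 of 8. Few serotonin (4 of 14) and nicotinic (3 of 16) genes did, and no dopamine receptor gene (0 of 4). Drd1a itself passed, at 1.99 to 2.16 log2 RPM in del/del and 1.41 to 1.94 in fl/fl libraries, a difference of 0.37 (SE 0.149, limma adjusted p = 0.418).

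**Figure D1:**
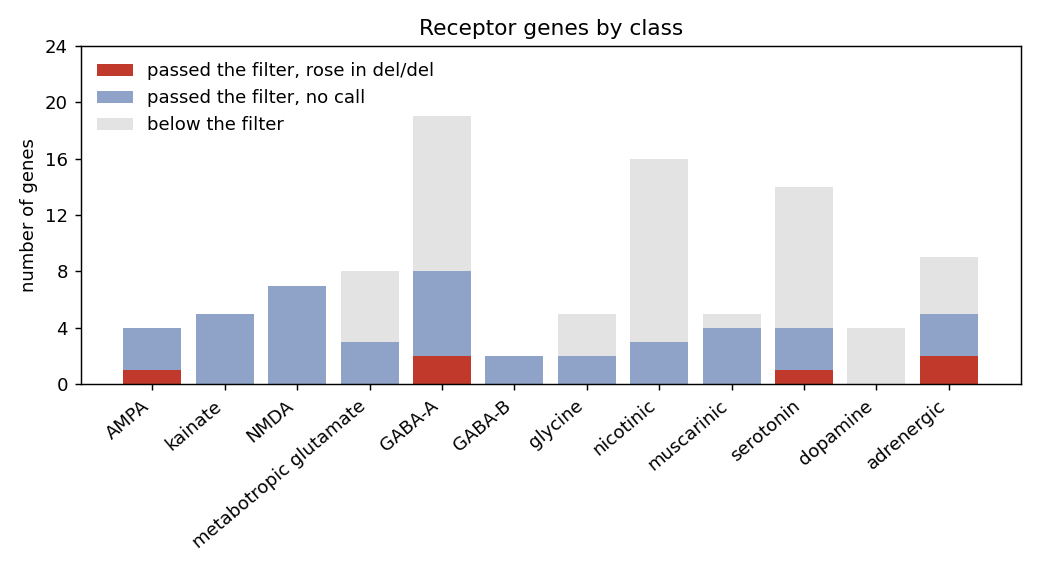
Number of receptor genes in each class (vertical axis) that stayed below the filter on low values (grey), passed it without a call (blue), or passed it and rose in del/del libraries (red). The 6 genes that rose sit in the AMPA, GABA-A, serotonin and adrenergic classes, and all 4 dopamine receptor genes stay below the filter.

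Deletion of Smchd1 went with higher RNA of 6 of the 47 receptor genes and lower RNA of 0 (limma on log2 RPM with sex as a covariate, Benjamini-Hochberg adjusted over all 14044 genes kept). The 5 described here are Gria1, an AMPA receptor subunit, Gabra4, a subunit of the GABA-A receptor, Htr2a, the 5-HT2A serotonin receptor, and Adra1b and Adra1d, alpha-1 adrenergic receptors. Their rise was between 2.17-fold (Htr2a) and 3.83-fold (Adra1b). Over all genes kept, 1.45% rose and 0.0997% fell. At an unadjusted p under 0.05, 10 receptor genes were higher and 1 lower, where 8.06% and 1.78% of all genes were. With voom on the reads recovered from the values 5 rose and 0 fell, against 1.55% and 0.199% of all genes. The median difference of the 47 was 0.13 on the log2 scale against -0.00 over all genes kept, and 31 of the 47 (66.0%) lay above 0 against 48.9% of all genes. Every del/del library stood above every fl/fl library for 9 of the 47, among them the 5 named, Adra1a and Chrnb1, where 5.53% of all genes kept did so; the reverse held for 0 of the 47 and for 0.99% of all. Passing the filter was not independent of the groups for 6 of the 47, among them Adra1b, Grin2b, Grm4 and Chrm1, which had a level of at least 0 in fewer than 3 fl/fl libraries.

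The count of 6 rested on individual libraries. Without the male del/del library of line 5 it was 0 (8 higher and 0 lower at an unadjusted p under 0.05), without the female del/del library of line 1 or that of line 2 it was 1 each, without line 3 of either female group it was 3, without male fl/fl 5 it was 2, and without female fl/fl 1 it was 4. Over all genes, 203 rose in the main fit, and that number was lower in these fits too. It was 2 without male del/del 5, and 60, 48 and 122 without female del/del 1, 2 and 3. Leaving out the control library of line 3, 5 or 1 gave 88, 112 and 180. Leaving out that of line 2 or 7 gave 213 and 240, with 5 receptor genes each. None of the 6 differences changed sign in any fit with 1 library left out. With the 6 female libraries alone, 0 receptor genes and 0.0216% of all genes rose. At an unadjusted p under 0.05, 9 receptor genes were higher and 0 lower there, where 897 and 84 of all genes were. The sample descriptions fall into 6 that carry the prefix RNA- and 3 that do not (female del/del 1, female fl/fl 1 and male fl/fl 7), and what the prefix marks is not stated. Within the 6 prefixed libraries the differences of the 5 genes ran from 0.98 (Htr2a) to 2.06 (Adra1b), and 2 passed, Htr2a and Adra1d, where 1.25% of all genes rose; 0 receptor genes fell (0 lower at an unadjusted p under 0.05), against 0.0432% of all. Because each line exists in both forms, the line number can serve as a block: 9 receptor genes then rose (among them the 5 named, Adra1a and Grm4) and 1 fell (Gabbr2), against 3.77% and 0.228% of all genes. With the block and median centring together 4 rose and 0 fell (4 lower at an unadjusted p under 0.05), against 1.61% and 0.171% of all genes, and Adra1a, Grm4 and Gabbr2 did not pass (adjusted p 0.0628, 0.109 and 0.0677).

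**Figure D2:**
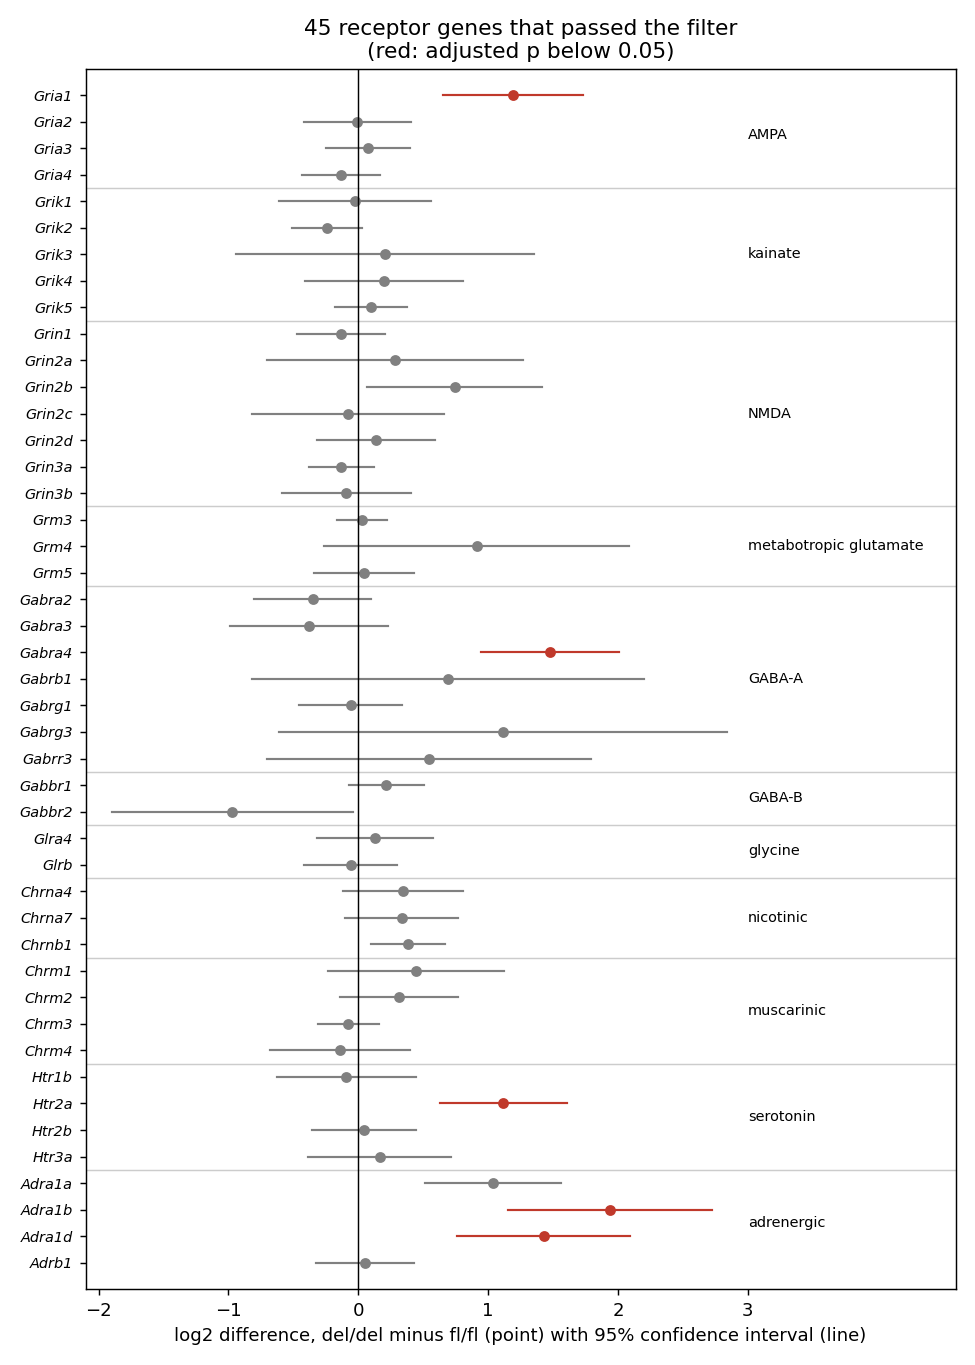
Log2 difference between del/del and fl/fl for 45 of the receptor genes that passed the filter, ordered by class, with the limma 95% interval as a bar; filled red points passed the adjusted threshold of 0.05. The 5 red points lie between 1.12 and 1.94, and most other intervals cross 0.

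Promoter sequence is shown for 3 of the 6 genes that rose together, so that the base composition of promoters of genes called in the same direction can be set side by side. They lie before the start of transcription in the RefSeq table for GRCm38.p6, which held 72 of the 98 genes; for Htr2a the 34 bases next to that start are left out, since the deposited row counts them as part of the gene. Each is written 5′ to 3′ on the strand of the gene, with CG dinucleotides, the sites of CpG methylation, in capitals. Gabra4 is taken from chr5:71658309-71658558 on the minus strand, Htr2a from chr14:74640624-74640839 on the plus strand, and Adra1b from chr11:43901238-43901487 on the minus strand, the nearer of 2 entries for that gene.
Gabra4: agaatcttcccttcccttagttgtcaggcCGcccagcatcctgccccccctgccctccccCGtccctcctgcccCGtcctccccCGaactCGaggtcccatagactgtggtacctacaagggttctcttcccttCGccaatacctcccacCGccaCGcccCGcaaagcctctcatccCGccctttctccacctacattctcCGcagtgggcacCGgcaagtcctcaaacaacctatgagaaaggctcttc
Htr2a: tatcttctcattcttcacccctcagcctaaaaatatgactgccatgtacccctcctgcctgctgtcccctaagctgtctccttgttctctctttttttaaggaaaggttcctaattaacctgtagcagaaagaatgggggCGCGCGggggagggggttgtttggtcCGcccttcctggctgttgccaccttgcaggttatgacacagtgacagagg
Adra1b: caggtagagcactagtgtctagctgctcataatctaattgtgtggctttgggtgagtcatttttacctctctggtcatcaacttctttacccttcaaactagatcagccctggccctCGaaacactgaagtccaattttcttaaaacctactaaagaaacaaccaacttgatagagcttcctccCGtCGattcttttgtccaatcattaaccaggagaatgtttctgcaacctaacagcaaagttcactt
The Gabra4 stretch holds 12 CG dinucleotides, a number that 33.5% of all promoters in the table reach over 250 bases. That of Htr2a holds 4 over the 216 bases shown, and that of Adra1b holds 3; 62.2% and 71.0% of promoters hold as many over 250 bases. So the 3 promoters differ in CG content, with a median of 6 over all promoters and 9 over the 72 matched receptor genes. The cyclic AMP response element TGACGTCA, which reads the same on both strands, occurs in 1.55% of all promoters and in 0 of the 72 over the 250 bases.

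Among the ionotropic glutamate receptors, Gria1 alone rose. Gria1 (chr11:57011387-57330244, transcript ENSMUST00000125292, whole span counted) encodes the AMPA subunit GluA1, whose channels lacking GluA2 let calcium through. Its level was 3.85, 4.00 and 4.01 log2 RPM in female del/del lines 1, 2 and 3 and 3.09 in male del/del line 5. The fl/fl libraries of female lines 1, 2 and 3 gave 2.26, 2.15 and 3.07, and those of male lines 5 and 7 gave 2.18 and 2.83. The groups did not overlap, though the male del/del library stood only just above female fl/fl line 3. Mean levels were 3.74 ± 0.437 (SD, n = 4) and 2.50 ± 0.423 (SD, n = 5), a 2.28-fold difference (95% interval 1.57 to 3.31, limma adjusted p = 0.0443) on 868 to 1688 reads per del/del and 107 to 920 reads per fl/fl library. Within lines the rise was 1.59, 1.86 and 0.94 in female lines 1, 2 and 3 and 0.91 in male line 5. The adjusted p went past 0.05 under several alternatives, among them median centring (0.0978), voom (0.0815) and leaving out 7 of the 9 libraries one at a time (0.0543 without female fl/fl 3 to 0.159 without female del/del 2).

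The other 3 AMPA subunits were not called, and their intervals were narrow. Gria2, the subunit that makes the channel impermeable to calcium, lay at 6.88 to 7.13 log2 RPM in del/del and 6.77 to 7.55 in fl/fl libraries, a difference of -0.01 (95% interval -0.42 to 0.40). Gria3, on the X chromosome, differed by 0.07 (-0.25 to 0.40) and Gria4 by -0.13 (-0.43 to 0.17). Kainate receptors have the core subunits Grik1, Grik2 and Grik3 and the accessory subunits Grik4 and Grik5. None of the 5 passed, with 0 at an unadjusted p under 0.05 and 0 by voom. Grik2 was lower in the del/del library of 4 of 4 lines, by 0.13 in female line 1, 0.54 in line 2, 0.02 in line 3 and 0.17 in male line 5, yet the difference of -0.24 (SE 0.121) had a limma adjusted p of 0.601. Grik5 differed by 0.10 (SE 0.124) and Grik4 by 0.20 (SE 0.271). Grik3 split by the RNA- prefix: it lay at 2.02 to 3.23 log2 RPM in the 3 libraries without it and at 3.51 to 4.74 in the 6 with it.

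NMDA receptors, which need glutamate and a co-agonist and pass calcium, had all 7 subunit genes above the filter, and none was called (1 higher and 0 lower at an unadjusted p under 0.05; 0 by voom). Grin1, the obligatory subunit, was at 2.58 to 2.85 log2 RPM in del/del and 2.50 to 3.15 in fl/fl libraries, a difference of -0.13 (SE 0.151); the row E130003G02Rik lies within its span and has 68.2% as many reads. Grin3a, an inhibitory subunit, differed by -0.13 (95% interval -0.38 to 0.12). Grin2b, the subunit prevalent in the embryonic brain, gave the largest difference of the class. Its level was 0.25, 0.23 and 0.86 in female del/del lines 1, 2 and 3 and 0.81 in male del/del line 5, against 0.30, -0.89, -0.11, -0.21 and 0.03 in fl/fl lines 1, 2, 3, 5 and 7. Female fl/fl line 1 overlapped the del/del range, and the difference of 0.74 (SE 0.302) did not pass (limma adjusted p = 0.418). Grin2a differed by 0.28 (SE 0.442), and its levels spread more between lines (0.66 to 2.42 in del/del) than between the groups.

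Of the metabotropic glutamate receptors, Grm3, Grm4 and Grm5 passed the filter and 0 of 3 were called (0 at an unadjusted p under 0.05; 0 by voom). Grm5, which couples to phospholipase C, lay at 6.92 to 7.13 log2 RPM in del/del and 6.61 to 7.40 in fl/fl libraries, a difference of 0.05 (95% interval -0.34 to 0.43). Grm3, which couples to Gi, differed by 0.03 (-0.17 to 0.22). Grm4, another Gi-coupled receptor, varied between lines: the del/del libraries of lines 1, 2, 3 and 5 gave -0.26, 0.45, 1.29 and 0.51, and fl/fl lines 1, 2, 3, 5 and 7 gave -1.03, -1.01, 0.71, -1.25 and 0.57. The groups overlapped, but the del/del library was higher than its own control in 4 of 4 lines. The difference was 0.91 (limma adjusted p = 0.743), or 1.14 once lines were paired as a block (adjusted p = 0.0454; 0.109 with median centring added).

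GABA-A receptors are chloride channels built of 5 subunits, usually alpha, beta and gamma, whose genes lie in clusters. Of the 8 genes above the filter, 2 rose, among them Gabra4, and 6 did not pass. The median difference of the 8 was 0.62, which lies between Gabrr3 (0.55, SE 0.558) and Gabrb1 (0.69, SE 0.676). Within the prefixed libraries Gabrr3 differed by 0.29 and Gabrb1 by 0.11.

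Gabra4 (chr5:71569734-71658308, transcript ENSMUST00000031121), whose promoter is printed above, encodes alpha-4, a subunit of receptors outside synapses. It was at 2.03, 1.81 and 1.28 log2 RPM in female del/del lines 1, 2 and 3 and 1.37 in male del/del line 5. The fl/fl libraries of lines 1, 2, 3, 5 and 7 gave 0.21, -0.34, 0.30, 0.29 and 0.27. All del/del libraries stood above all fl/fl libraries, and the lowest value belonged to the shallow fl/fl library of line 2. The difference was 2.79-fold (95% interval 1.93 to 4.02, limma adjusted p = 0.0173; 1.62 ± 0.359, SD, n = 4, against 0.14 ± 0.275, SD, n = 5) on 240 to 368 and 19 to 139 reads. Within lines it was 1.82, 2.15 and 0.98 in female lines 1, 2 and 3 and 1.08 in male line 5. Among other alternatives, leaving out male del/del 5 (adjusted p = 0.110), female del/del 1 (0.0660) or female del/del 2 (0.0864) ended the call, and so did quantile normalisation (0.0703).

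The neighbours of Gabra4 in its cluster were not called. Beside it on chromosome 5, Gabra2 differed by -0.35 (SE 0.202), Gabrg1 by -0.06 (SE 0.177) and Gabrb1 by 0.69 (SE 0.676). Gabrb1 split by the RNA- prefix: it lay at -0.60 to 0.73 log2 RPM in the 3 libraries without it and at 1.57 to 2.76 in the others. On chromosome 7, Gabrg3 gave 1.12 (SE 0.773, limma adjusted p = 0.872). Its 2 lowest values, -2.78 and -3.27, were those of female fl/fl 1 and male fl/fl 7, both without the prefix, and within the prefixed libraries it differed by 0.18. On the X chromosome, Gabra3 differed by -0.38 (95% interval -0.99 to 0.23). Of all 7 X-linked receptor genes 3 passed the filter and 0 were called (0 at an unadjusted p under 0.05; 0 by voom).

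A pair of GABA-A genes below the filter had more reads in every del/del library than in any fl/fl library; they were singled out after their values were seen. Gabra5 (chr7:57407690-57510009), encoding alpha-5, had 103, 62 and 58 reads in female del/del lines 1, 2 and 3 and 94 in male del/del line 5, against 6, 3, 7, 18 and 7 in fl/fl lines 1, 2, 3, 5 and 7. Gabrb2 (chr11:42419757-42629028), encoding beta-2, had 88, 96, 79 and 99 reads in del/del lines 1, 2, 3 and 5 and 25, 1, 23, 22 and 19 in the fl/fl lines. Neither reached 1 RPM in 3 libraries, so both stood outside the main count. In a limma fit with no filter on low values, Gabra5 was higher by 3.33 on the log2 scale (adjusted p = 0.00862) and Gabrb2 by 2.78 (adjusted p = 0.0261). With no filter 8 of the 95 receptor genes with a read rose, where 1.19% of all genes did, and 0 fell (1 lower at an unadjusted p under 0.05), where 0.0448% did. The row Gm9962 overlaps the edge of Gabra5 and had 12 to 20 reads in del/del libraries and 0 in fl/fl libraries.

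**Figure D3:**
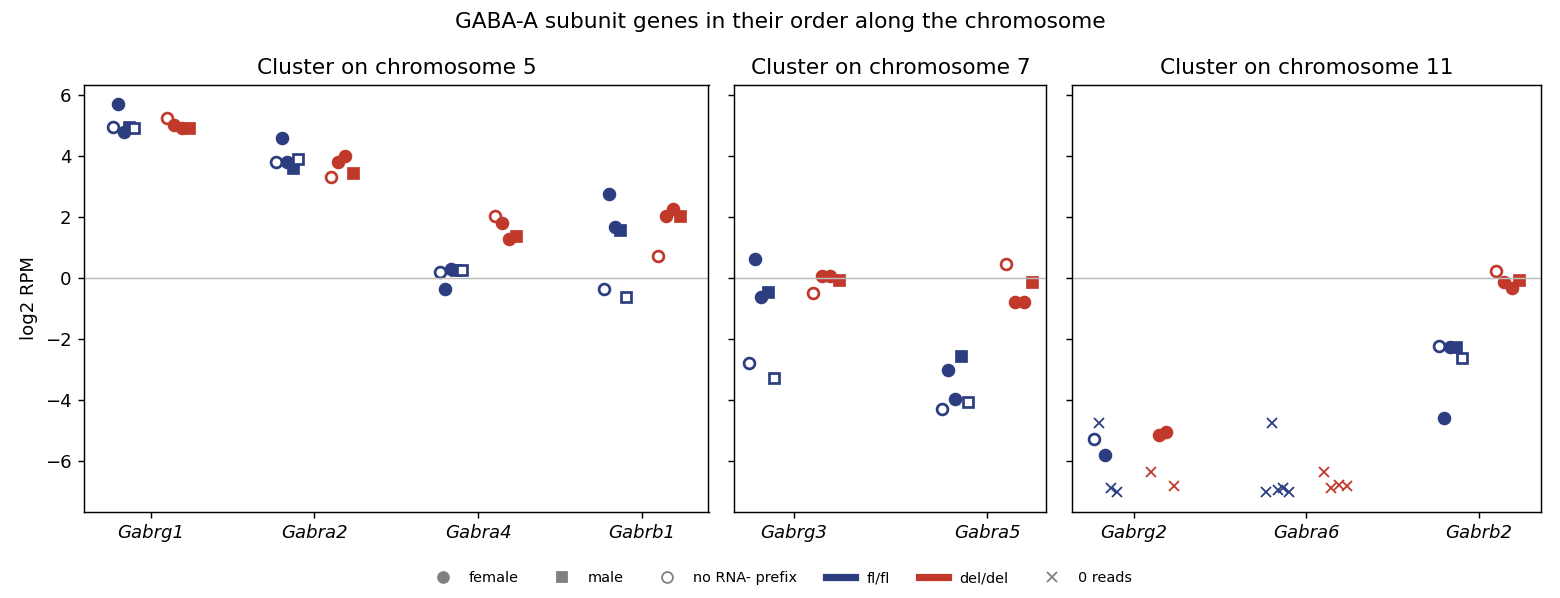
Log2 RPM (vertical axis) of GABA-A subunit genes from 3 clusters in chromosome order, for fl/fl (blue) and del/del (red) libraries; open symbols lack the RNA- prefix, squares are male, and crosses mark libraries with 0 reads, drawn at the value entered for 0. Gabra4, Gabra5 and Gabrb2 show red points above all blue points, while Gabrg1, Gabra2 and Gabrb1, the neighbours of Gabra4 on chromosome 5, overlap.

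GABA-B receptors are G protein-coupled and need both subunits, Gabbr1 to bind GABA and Gabbr2 to reach the surface and signal. Gabbr2 was the receptor gene with the lowest difference. Its level was 0.11, 0.80 and 1.79 log2 RPM in female del/del lines 1, 2 and 3 and 1.06 in male del/del line 5, against 1.21, 1.64, 2.67, 1.46 and 2.75 in fl/fl lines 1, 2, 3, 5 and 7. The groups overlapped, since del/del line 3 was above fl/fl lines 1, 2 and 5, but every line was lower in its del/del form, by 1.10, 0.84 and 0.88 in female lines 1, 2 and 3 and 0.40 in male line 5. The difference was -0.97 (SE 0.416, limma adjusted p = 0.465), or -0.80 once lines were paired as a block (adjusted p = 0.0258; 0.0677 with median centring added). Gabbr1 differed by 0.22 (95% interval -0.07 to 0.51) and was higher in 4 of 4 lines. Glycine receptors were represented by Glrb, the beta subunit that gephyrin anchors, which differed by -0.06 (-0.42 to 0.30), and by Glra4, which lies inside the row BC065397 and differed by 0.13 (-0.32 to 0.58).

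The libraries without the RNA- prefix stood apart for 4 of the 47 receptor genes whatever the genotype, about as often as for all genes. All 3 were below the 6 others for Grik3, Gabrb1 and Gabrr3 (6.38% of the 47, against 5.56% of all genes kept). They were above the others for Grik5 alone, where 4.39% of all genes kept were. Both libraries of female line 1 lack the prefix, so for them prefix and line cannot be told apart. Gabrr3, a rho subunit of GABA-A receptors, lay at -1.26, -1.66 and -1.36 log2 RPM in female del/del 1, female fl/fl 1 and male fl/fl 7 and between -0.20 and 0.46 in the others. Its difference between the genotypes was 0.55 (SE 0.558), and within the prefixed libraries line 2 was higher in del/del by 0.66, line 3 by 0.22 and line 5 by -0.00.

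**Figure D4:**
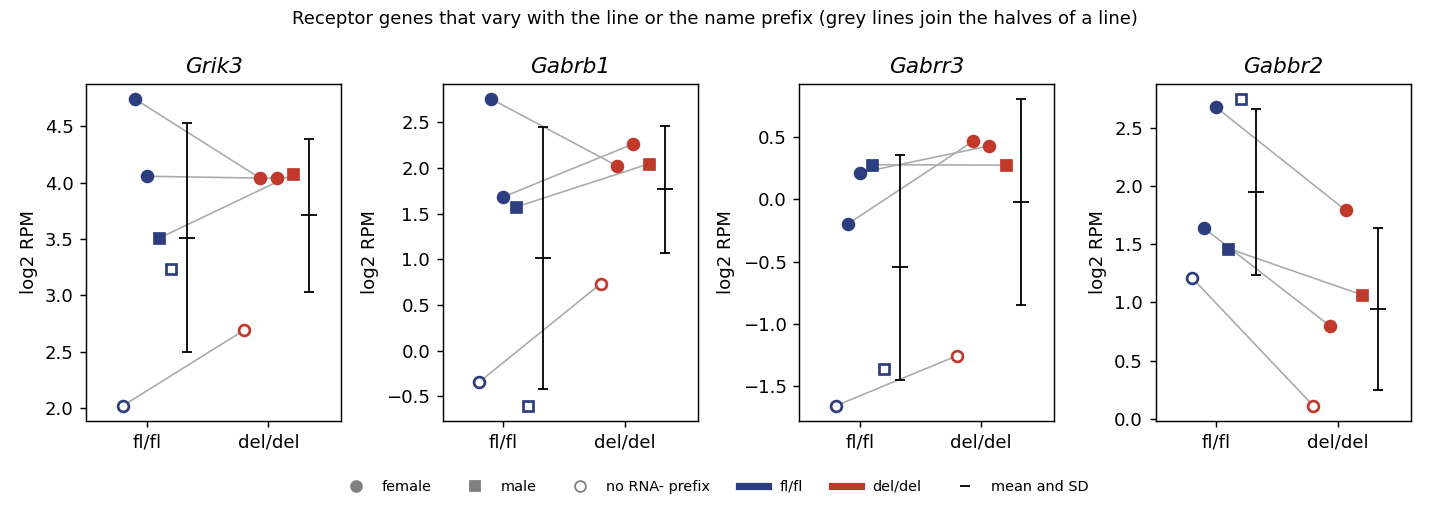
Log2 RPM (vertical axis) of Grik3, Gabrb1, Gabrr3 and Gabbr2 in each fl/fl (blue) and del/del (red) library, with grey lines joining both libraries of a line and bars for the group mean with its SD; open symbols lack the RNA- prefix, squares are male. The open symbols are the 3 lowest for Grik3, Gabrb1 and Gabrr3, whereas all 4 lines of Gabbr2 slope down from fl/fl to del/del.

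The 3 nicotinic genes above the filter were all higher in del/del, and none was called (1 higher at an unadjusted p under 0.05; 0 by voom). Chrnb1, the beta subunit of the muscle-type receptor, was at 1.97, 1.87, 1.87 and 2.08 log2 RPM in del/del lines 1, 2, 3 and 5 and at 1.52, 1.64, 1.61, 1.40 and 1.69 in fl/fl lines 1, 2, 3, 5 and 7. Its groups did not overlap, at a difference of 0.38 (SE 0.127, limma adjusted p = 0.254). Chrna4 differed by 0.35 (SE 0.206) and Chrna7, the subunit of calcium-permeable homomeric receptors, by 0.33 (SE 0.195). Muscarinic receptors are G protein-coupled. Chrm1 differed by 0.44 (SE 0.302), Chrm2 by 0.31 (SE 0.203), Chrm3 by -0.08 (SE 0.105) and Chrm4, which shares its end with the Mdk row, by -0.14 (SE 0.242). None of these 4 passed (0 at an unadjusted p under 0.05; 0 by voom).

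Htr2a (chr14:74640840-74706859, transcript ENSMUST00000036653), the Gq-coupled receptor on which serotonergic hallucinogens act, was the serotonin receptor that rose. It gave 2.17, 1.40 and 1.25 log2 RPM in female del/del lines 1, 2 and 3 and 1.70 in male del/del line 5. The fl/fl libraries of lines 1, 2, 3, 5 and 7 gave 0.75, 0.45, 0.35, 0.63 and 0.43. No fl/fl library reached a del/del library. The means were 1.63 ± 0.404 (SD, n = 4) and 0.52 ± 0.161 (SD, n = 5), a 2.17-fold difference (95% interval 1.55 to 3.04, limma adjusted p = 0.0387) on 236 to 333 and 33 to 196 reads. Each line was higher, by 1.42, 0.95 and 0.90 in female lines 1, 2 and 3 and 1.08 in male line 5. Leaving out single libraries lost the call in 7 of 9 cases, with adjusted p up to 0.286 without male del/del 5 and 0.0529 without the shallow female fl/fl 2. The 3 other serotonin receptors above the filter had differences close to 0: Htr3a, the ion channel subunit, 0.16 (95% interval -0.39 to 0.72), Htr2b, which lies inside the much more abundant Psmd1 row, 0.05 (-0.36 to 0.45), and Htr1b -0.09 (-0.63 to 0.45).

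Adrenergic receptors bind noradrenaline and adrenaline, the alpha-1 type coupling to Gq and the beta type to Gs. All 3 alpha-1 genes were higher in del/del, and 2 of them passed. Adra1b (chr11:43774606-43901210, transcript ENSMUST00000067258), whose promoter is printed above, had the largest rise of the 5. Female del/del lines 1, 2 and 3 gave 1.78, 1.94 and 1.49 log2 RPM and male del/del line 5 gave 1.82. In fl/fl lines 1, 2, 3, 5 and 7 it was -0.17, -1.01, 0.78, -0.69 and 0.15. The del/del values were close together and above all fl/fl values, which spread widely and were lowest in the shallow library of line 2. The difference was 3.83-fold (95% interval 2.22 to 6.60, limma adjusted p = 0.0274; 1.76 ± 0.191, SD, n = 4, against -0.19 ± 0.702, SD, n = 5) on 255 to 404 and 12 to 188 reads. Within lines it came to 1.95, 2.95 and 0.71 in female lines 1, 2 and 3 and 2.51 in male line 5. Leaving out any 1 of 6 libraries ended the call, at an adjusted p of 0.0522 without female fl/fl 1 up to 0.232 without male del/del 5, and under median centring (0.0632).

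Adra1d (chr2:131545850-131562283, transcript ENSMUST00000103184) was at 2.39, 2.69 and 2.66 log2 RPM in female del/del lines 1, 2 and 3 and 2.92 in male del/del line 5. Its fl/fl values were 1.70, 0.58, 1.31, 0.70 and 2.07 in lines 1, 2, 3, 5 and 7. The groups did not overlap, and the 2 highest fl/fl values were those of lines 1 and 7, the fl/fl libraries without the prefix. The difference was 2.69-fold (95% interval 1.70 to 4.27, limma adjusted p = 0.0493; 2.66 ± 0.217, SD, n = 4, against 1.27 ± 0.638, SD, n = 5) on 387 to 769 and 36 to 485 reads. By line it was 0.68, 2.12 and 1.35 in female lines 1, 2 and 3 and 2.21 in male line 5. The row Gm14285 overlaps its 5′ end, has 39.8% as many reads and differed by 1.69 (adjusted p = 0.114), so reads of the pair may be shared. Adra1d was the call nearest the threshold: leaving out any 1 of 7 libraries lost it (0.0567 without female fl/fl 2 to 0.298 without male del/del 5), as did voom (0.0676) and median centring (0.0978).

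Adra1a (chr14:66635251-66733462) was at 1.87, 1.64, 1.78 and 2.15 log2 RPM in del/del lines 1, 2, 3 and 5 and at 1.08, 1.19, 0.40, 0.35 and 1.11 in fl/fl lines 1, 2, 3, 5 and 7. The groups did not overlap, at a 2.05-fold difference with a limma adjusted p of 0.0689. It passed once the line was a block (adjusted p = 0.0332) and with voom (0.0288). Adrb1, the beta-1 receptor, differed by 0.05 (95% interval -0.33 to 0.43) and was not called. No alpha-2 gene passed the filter (0 of 3).

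**Figure D5:**
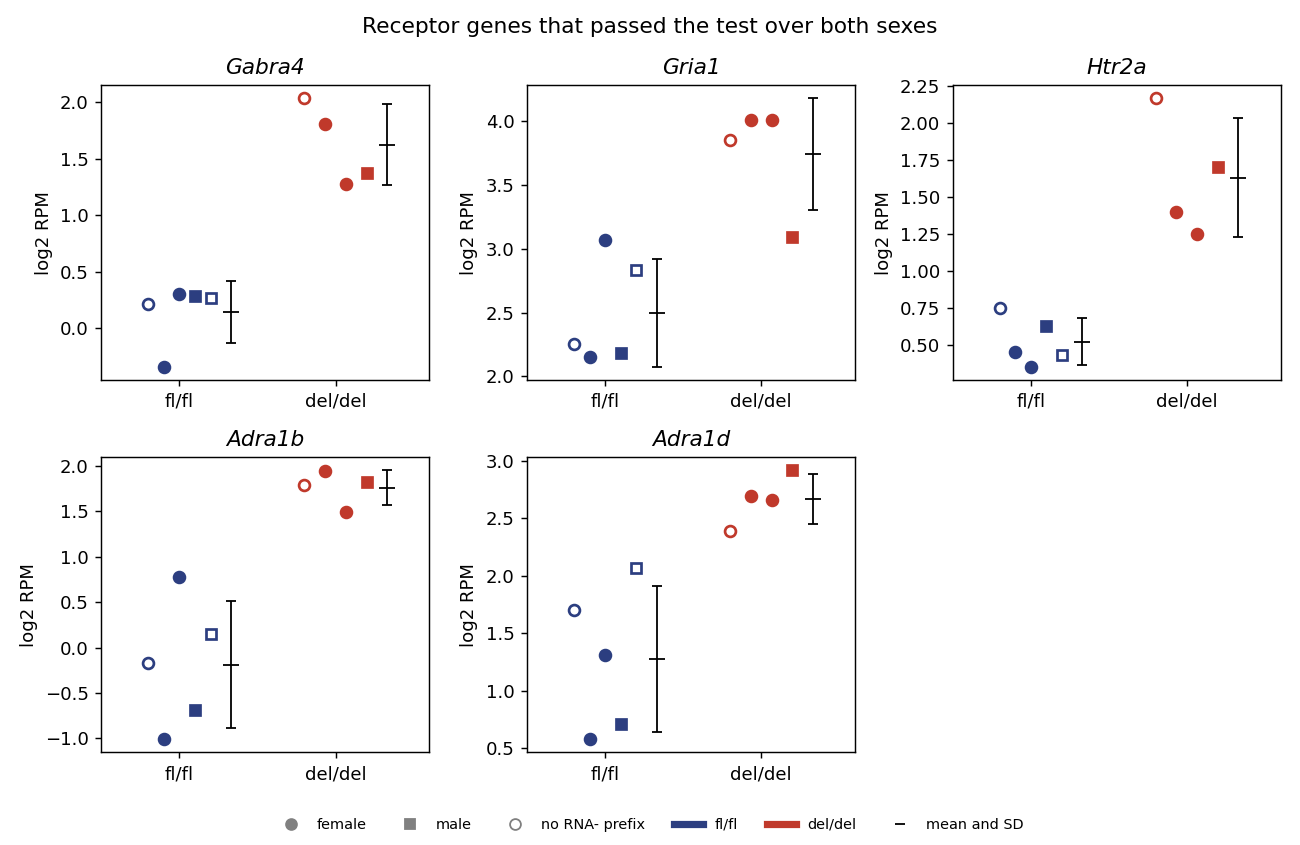
Log2 RPM (vertical axis) of 5 receptor genes that rose, in each fl/fl (blue) and del/del (red) library; circles are female, squares male, open symbols lack the RNA- prefix, and bars give the group mean with its SD. In all 5 panels the 4 red points lie above the 5 blue points, with the smallest gap for Gria1 (3.09 against 3.07).

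The difference between the sexes in the response was tested as the limma interaction of sex and genotype, which passed for 0 of the 47 and 0 of 14044 genes (0 receptor genes at an unadjusted p under 0.05; not fitted with voom). With 1 male del/del library, this term takes that library to vary like the other groups. In the female and male group means, the difference of Gria1 was 1.46 and 0.58.

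Of 43 auxiliary subunits and scaffolds listed, 42 were found and 34 passed the filter; 1 rose and 0 fell (4 higher and 2 lower at an unadjusted p under 0.05; 0 fell by voom), with a median difference of 0.03. The one that rose was Lynx1, a membrane-anchored modulator of nicotinic receptors, at 3.32 to 3.53 log2 RPM in del/del and 1.93 to 2.83 in fl/fl libraries, a difference of 1.04 (SE 0.170, limma adjusted p = 0.0188). Neto1, an auxiliary subunit of kainate receptors, differed by -0.46 (adjusted p = 0.189) and Olfm1, a secreted AMPA receptor partner, by 0.36 (adjusted p = 0.233). Of 22 enzymes of transmitter synthesis and breakdown, 14 passed the filter and 0 were called (3 higher and 0 lower at an unadjusted p under 0.05; 0 by voom), with a median of 0.01. Ache, which breaks down acetylcholine, differed by 0.93 (adjusted p = 0.0575), Abat, which breaks down GABA, by 0.48 (adjusted p = 0.140), and Gad1, which makes GABA, by 0.80 (adjusted p = 0.214). When lines formed a block, Ache (adjusted p = 0.0343) and Gad1 (0.0348) passed. Of 27 genes of receptor coupling and desensitisation, 26 passed the filter, 2 rose and 0 fell (6 higher and 2 lower at an unadjusted p under 0.05; 0 fell by voom), with a median of -0.06. Grk4, a kinase of G protein-coupled receptors, was at 2.33 to 2.40 log2 RPM in del/del and 1.39 to 1.79 in fl/fl libraries, a difference of 0.81 (SE 0.127, adjusted p = 0.0157). Adcy2, an adenylyl cyclase, was at 1.68 to 2.38 in del/del and -0.70 to 1.08 in fl/fl libraries, a difference of 1.84 (SE 0.343, adjusted p = 0.0309). These shares stand beside 1.45% of all genes that rose and 8.06% that were higher at an unadjusted p under 0.05. Rgs4, which shortens Gq and Gi signals, differed by 0.61 (adjusted p = 0.0641; 0.0336 with lines as a block).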

How the data were processed

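The data are 1 deposited table of log2 values for 25965 gene rows in 9 libraries, made by the authors with TopHat2 2.0.12, edgeR 3.8.2 and bcl2fastq on build mm10, per the submitters' processing notes, with no role given for each. The deposited log2 values taken off the log gave whole reads for at least 99.9961% of values per library (within 0.05 reads), 0 reads being entered as 0.9. Values are RPM, scaled to a constant per library that is larger than the reads in genes, which were 34.8% to 53.3% of it. Of 2227 rows lying inside another row, all 2227 had no more reads than that row in every library, so rows hold the reads of their entire span, introns included; strand is not given in the sources used here. Members that overlap another row (9 of 47 kept) are uncertain.

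Groups came from the sample titles. The members, gene lists and tests were chosen with earlier results of these data known. The 14044 genes that reached a log2 level of 0 in 3 or more libraries were fitted with limma 3.58.1 (R 4.3.3; lmFit, eBayes with trend) on genotype and sex, two-sided, with Benjamini-Hochberg adjustment and a threshold of 0.05. Fold changes are 2 to the power of the log2 difference, and intervals are 95% intervals of the fit. No gene list was tested as a set. Named were all receptor genes called, and up to 3 per class with the smallest p and up to 2 with the most reads. In each pathway list those called and the 3 with the smallest p were named. Grik3, Grin2a, Gabra3, Gabrb1, Gabrg3, Gabrr3 and Chrm4 fall outside this rule and were named with their values known. Other member genes are listed for having no reads, a flag or a changed sign, or are said to be chosen after seeing values. Because each line was divided, its number pairs a del/del with a fl/fl library; deviations of the female pairs from their group means correlated at 0.868, 0.582 and 0.758, although lines 2 and 3 also correlated with each other (0.728 and 0.494). Alternatives were the line as a block, median centring, quantile normalisation, both block and centring, log2(RPM + 1), other filters, voom with TMM scaling on recovered reads, no sex term, female or prefixed libraries only, and each library left out; 2 that keep rows with at least 50 reads were chosen after seeing the data. Libraries of a group are separate lines, per the labels, so p-values of the main fit measure the spread between lines. That fit leaves out the pairing of lines present in both groups. With the line as a block, p-values measure the spread that remains within lines. The script was tested on simulated data. Results for 3 receptor genes are not reported here; the counts include them. Promoters came from a RefSeq table (GRCm38.p6).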

Additional observations from a re-analysis of the deposited data

Results flagged for a closer look

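In 14 of the 94 sets of libraries examined (each gene kept, within del/del or fl/fl), the highest or lowest library lay apart from the rest by more than Dixon's limit, where chance flags about 1 in 20. The library in question was female del/del 1 in 7 cases, female fl/fl 2, the shallowest, in 6, and female del/del 3 in 1.

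Female del/del 1, the only del/del library whose description lacks the RNA- prefix, was the highest del/del library for Gria2 (7.13 log2 RPM), Grik5 (5.95) and Gabbr1 (6.00). It was the lowest for Grik3 (2.69), Grik4 (1.43), Gabrb1 (0.73) and Gabrr3 (-1.26). Female fl/fl 2 was the highest fl/fl library for Gria2 (7.55), Grin3a (5.75), Gabrg1 (5.70) and Chrm3 (4.31), and the lowest for Gabra4 (-0.34) and Glra4 (0.36). Female del/del 3 was the highest del/del library for Grm5 (7.13). Of these genes Gabra4 is the only one called, and leaving female fl/fl 2 out kept that call.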

How the results depend on the processing

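Group sizes (4 and 5 libraries, 1 of them male del/del) limit the counts, and the shallowest library had 12853089 reads in genes. Of all genes 203 rose and 14 fell in the main analysis. The number that rose was 3 in female libraries only, 84 with the stricter filter (a log2 level of at least 2), 86 after quantile normalisation and 529 with the replicate block, and 2 to 240 with single libraries left out. The number that fell was 6 in prefixed libraries only, 0 in female libraries only (84 lower at an unadjusted p under 0.05), 7 with the stricter filter, 24 with block and centring, 32 with the block, 28 with voom, 32 with voom on rows of at least 50 reads, and 0 to 15 with single libraries left out. Of the receptor genes 6 rose: 2 in prefixed libraries only, 0 in female libraries only, 1 with the stricter filter, 3 after median centring, 1 after quantile normalisation and 0 to 5 with single libraries left out. The number was 7 with log2(RPM + 1), 7 without a sex term, 7 with limma on rows of at least 50 reads and 8 with no filter. Of all genes 256, 265, 268 and 265 rose in these fits. With the block 9 receptor genes rose and 1 fell. The causes were not tested, except that some alternatives hold fewer libraries or genes. The block, which uses the pairing of lines, changed no other call of a named receptor gene than those given above.

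Signs changed in 51 cases over 18 receptor genes, none of which passed in either setting, and the largest size after a change was 0.27. Without a sex term Gria2 gave 0.021. Quantile normalisation gave Gria2 0.057, Grin2d -0.14, Grm3 -0.018, Glra4 -0.10, Htr2b -0.12 and Htr3a -0.0050. Prefixed libraries only gave Grik1 0.11, Grik3 -0.053, Grin2c 0.26 and Adrb1 -0.086, and female libraries only Grik1 0.015 and Grik3 -0.017. The block gave Grik1 0.10 and Grin2c 0.096, and with centring 0.069 and 0.061. Voom gave Grm3 -0.027, and on rows of at least 50 reads Grm3 -0.038, Glra4 -0.0087 and Adrb1 -0.0016. With single libraries left out the ranges were Adrb1 -0.099 to 0.20, Chrm3 -0.13 to 0.0050, Chrm4 -0.24 to 0.038, Gabrg1 -0.17 to 0.12, Glra4 -0.030 to 0.28, Glrb -0.17 to 0.088, Gria2 -0.082 to 0.17, Gria3 -0.011 to 0.18 and Grik1 -0.14 to 0.12. They were Grik3 -0.27 to 0.60, Grin2a -0.047 to 0.57, Grin2c -0.27 to 0.10, Grm3 -0.0029 to 0.072, Grm5 -0.030 to 0.19, Htr1b -0.26 to 0.078, Htr2b -0.060 to 0.16 and Htr3a -0.040 to 0.27.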

Other observations

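Below the filter, 4 further receptor genes are given with their reads, singled out here after their values were seen. Htr4, a Gs-coupled serotonin receptor, had 0, 4, 8 and 8 reads in del/del lines 1, 2, 3 and 5 and 0 in all 5 fl/fl libraries, where a count of 0 allows up to 3 reads per library. Htr4 did not pass in the limma fit with no filter on low values (adjusted p = 0.415). Adrb3, the beta-3 adrenergic receptor, had 19 to 39 reads in del/del and 0 to 23 in fl/fl libraries and did not pass in the limma fit with no filter on low values (adjusted p = 0.218). Htr7, another Gs-coupled serotonin receptor, had 8 to 20 and 0 to 12 reads (adjusted p = 0.323). Chrnb2, the usual partner of Chrna4 in neuronal nicotinic receptors, had 64 to 107 reads in del/del and 13 to 104 in fl/fl libraries. It reached 1 RPM in 1 of 4 del/del and 0 of 5 fl/fl libraries.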
